A study of Mus musculus with 2 samples.

Results

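The genes described here encode the enzymes that make cholesterol and fatty acids and the proteins that set how much of these enzymes a cell makes. They are 30 named genes, taken from the array by matching the RefSeq accession of each probe, without its version, to a gene symbol. All 30 were on the array, with 42 of its 55669 probes, among 20143 genes that could be named in this way. They comprise 18 enzymes of the sterol pathway, 1 sterol transporter, 5 regulators and 6 genes of fatty acid synthesis.

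The cells were bone marrow cells of C57BL/6 mice, cultured for 4 days with 5% fetal bovine serum. One culture received GM-CSF, a growth factor for granulocytes and macrophages, at 40 ng/ml together with IL-6, an inflammatory cytokine, at 40 ng/ml (GM-CSF + IL-6). The other received GM-CSF at 40 ng/ml alone (GM-CSF ONLY), so both groups share the GM-CSF. Such cultures are a laboratory model of myeloid-derived suppressor cells (MDSCs), and each held a mixture of cells whose sorting the labels do not mention. Total RNA of each culture was hybridised to 1 Agilent array in 1 colour, so each condition had 1 array. The differences therefore compare these cultures only, without replicates and without a test.

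Cells build cholesterol from acetyl-CoA by way of mevalonate, farnesyl diphosphate, squalene and lanosterol, and they build fatty acids from the same precursor. When membranes of the endoplasmic reticulum run low in sterol, the escort protein SCAP carries the transcription factors SREBP to the Golgi, where proteases release their active part, and INSIG proteins hold SCAP back when sterol is plentiful. The product of Srebf2 is best known for inducing sterol genes and that of Srebf1 for fatty acid genes, and both act at promoters together with the factors NF-Y and Sp1. In myeloid cells the pathway supplies membranes for growing cells and is tied to inflammatory and interferon signalling.

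The levels given are array signals scaled so that both arrays have the same 75th percentile, and signals of different genes cannot be set against each other because probes differ in brightness. A log2 ratio is the level with GM-CSF + IL-6 minus that with GM-CSF ONLY. The error after ± is the technical SD of log2 ratios between repeated spots at that signal. For a probe with several spots, this SD is divided by the square root of their number. That error covers the spot only, not labelling or culture. A gene counts as measured where its probe was well above background on both arrays, which held for 13843 genes, and a gene with several such probes is represented by the brightest. All 30 genes were measured, on 41 of their 42 probes. The arrays had 57.9% (GM-CSF + IL-6) and 59.1% (GM-CSF ONLY) of probes well above background, with 0 saturated spots.

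SREBP, NF-Y and Sp1 each recognise short DNA motifs, and the promoters of 24 of the 30 genes could be read from RefSeq sequence of build GRCm38.p6 as windows of 300 bases, from 250 bases before to 50 bases after the transcription start. The 5 windows printed here belong to Hmgcs1, the only gene of the 24 with an exact match to the sterol regulatory element, to Mvk and Acat2, the enzyme genes with the lowest and the highest log2 ratio, to Srebf2, the regulator with the highest ratio, and to Fasn, the fatty acid synthase gene. Capitals mark matches on either strand to TCACNCCAC (the sterol regulatory element, SRE), CCAAT (the CCAAT box, bound by NF-Y) and GGGCGG (the GC box, bound by Sp1). The windows lie at chr13:119690101-119690400 on the plus strand, chr5:114444019-114444318 on the plus strand, chr17:12960676-12960975 on the minus strand, chr15:82147019-82147318 on the plus strand and chr11:120824498-120824797 on the minus strand, and each is written 5′ to 3′ in the direction of its gene.
Hmgcs1: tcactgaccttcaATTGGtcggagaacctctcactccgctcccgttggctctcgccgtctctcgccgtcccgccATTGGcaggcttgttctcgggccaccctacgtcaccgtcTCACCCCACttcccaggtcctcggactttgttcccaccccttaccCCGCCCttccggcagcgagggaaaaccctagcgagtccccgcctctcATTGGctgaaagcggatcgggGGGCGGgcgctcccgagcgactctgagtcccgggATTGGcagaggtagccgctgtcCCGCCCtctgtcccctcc
Mvk: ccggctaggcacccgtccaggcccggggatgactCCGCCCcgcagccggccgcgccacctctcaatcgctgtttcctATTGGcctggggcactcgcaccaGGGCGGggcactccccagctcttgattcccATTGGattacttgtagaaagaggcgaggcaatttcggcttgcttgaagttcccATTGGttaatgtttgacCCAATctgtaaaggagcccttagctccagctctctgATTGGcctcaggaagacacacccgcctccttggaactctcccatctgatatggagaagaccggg
Acat2: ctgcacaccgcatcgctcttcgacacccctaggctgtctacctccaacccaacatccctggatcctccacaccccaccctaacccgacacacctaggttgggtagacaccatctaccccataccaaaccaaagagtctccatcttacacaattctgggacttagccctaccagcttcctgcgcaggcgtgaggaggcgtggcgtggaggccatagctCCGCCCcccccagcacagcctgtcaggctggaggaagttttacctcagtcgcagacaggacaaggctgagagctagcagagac
Srebf2: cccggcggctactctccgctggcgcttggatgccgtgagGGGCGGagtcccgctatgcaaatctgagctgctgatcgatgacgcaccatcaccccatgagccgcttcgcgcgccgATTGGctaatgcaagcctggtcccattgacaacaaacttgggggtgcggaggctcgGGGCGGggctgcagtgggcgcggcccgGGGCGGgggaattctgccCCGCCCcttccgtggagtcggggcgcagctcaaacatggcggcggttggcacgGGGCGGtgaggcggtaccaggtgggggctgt
Fasn: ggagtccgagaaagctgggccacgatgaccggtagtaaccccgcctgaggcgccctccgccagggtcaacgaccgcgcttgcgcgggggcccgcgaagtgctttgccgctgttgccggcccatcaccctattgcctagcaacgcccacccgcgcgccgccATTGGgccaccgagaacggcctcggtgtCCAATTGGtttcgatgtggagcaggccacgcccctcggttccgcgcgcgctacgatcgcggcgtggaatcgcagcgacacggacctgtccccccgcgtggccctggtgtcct

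The windows differ in what they hold. Hmgcs1 had its SRE 137 bases before the start, with 4 CCAAT boxes and 3 GC boxes. Mvk had 5 CCAAT boxes and 2 GC boxes, Srebf2 had 1 CCAAT box and 5 GC boxes, and Fasn had 3 CCAAT boxes, a pair of them overlapping, and 0 GC boxes. Acat2 had 1 GC box, 33 bases before the start, and 0 CCAAT boxes. Among the 24 genes, 20 had a CCAAT box (83.3%), against 42.8% of 11090 measured genes with a window and 37.4% of all 32851 windows. A GC box was present in 20 (83.3%), against 62.9% of measured genes and 35.7% of windows. Both boxes stood in the same window in 17 genes (70.8%), against 24.8% of measured genes and 12.8% of windows. An SRE with at most 1 mismatch was present in 11 genes (45.8%), against 29.2% of measured genes and 24.2% of windows, and an exact one in 1 gene (4.17%), against 1.38% and 1.24%. The E-box CACGTG was found in 5 genes (20.8%), against 11.04% and 7.15%. The other E-box form searched, TCANNTGA, was found in 1 gene (Insig2, 4.17%), against 8.07% of measured genes and 8.39% of windows. Genes with more than 1 window counted as having a match if any window did. A match is a run of letters and not a shown binding site.

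**Figure D1:**
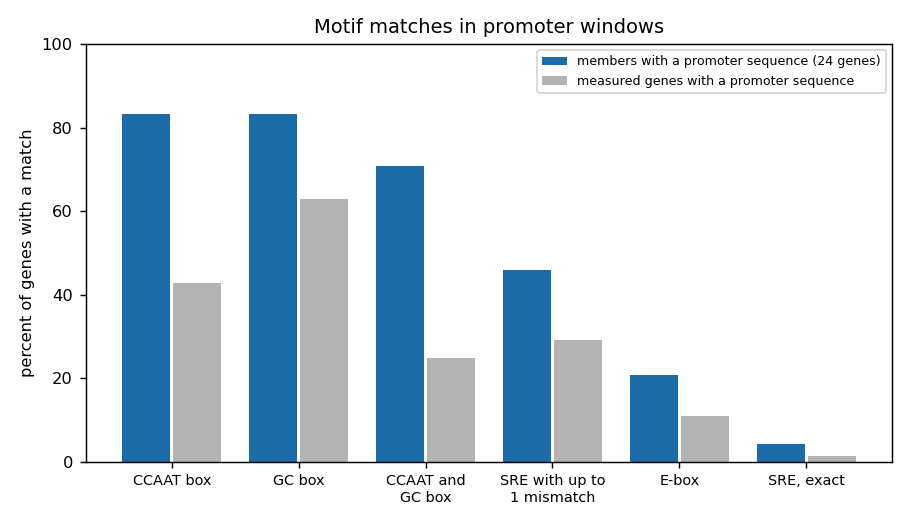
Percent of genes whose promoter window holds each motif, for the 24 members with a window (left bar of each pair) and for all measured genes with a window (right bar). CCAAT boxes were present in 83.3% of members, against 42.8% of measured genes.

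The culture with IL-6 differed little from the other in this pathway. Of the 30 genes, 15 had a log2 ratio above 0 and 15 below 0, with a range from -0.21 to 0.30 and a median of -0.01, beside a median of -0.02 over all 13843 measured genes. None of the 30 genes was 2-fold apart, which 0.383% of all measured genes were. One gene, Acat2, was at least 1.2-fold higher (a log2 ratio of 0.26 or more), against 6.36% of measured genes, and 0 were at least 1.2-fold lower, against 5.97%. Such calls were rarer among the 8049 genes with a signal above the 75th percentile, a level that most members reached. Of these genes 152 were at least 1.2-fold higher, 195 as much lower and 0 were 2-fold apart. The SD of the log2 ratio over the 30 genes was 0.12, beside 0.13 over the 8049 genes with a signal above the 75th percentile and 0.20 over all measured genes. The ratio was at least 2 technical errors above 0 in 4 genes (Acat2, Fdps, Dhcr7 and Srebf2), where 11.7% of measured genes were, and at least 2 technical errors below 0 in 5 (Mvk, Idi1, Ebp, Scap and Insig2), where 17.8% were. Together these were 9 of 30 members (30%), beside 29.5% of all measured genes, so the share that passed the spot error was near that of genes at large. The genes on the lower side depend on the scaling. With quantile normalization, and in the authors' matrix, 2 members (Mvk and Scap) were that far below 0, and with cyclic loess 3 (Mvk, Ebp and Scap). All 4 genes on the higher side were there in each of these settings, joined by Scd1 and, with cyclic loess, Insig1. These settings keep the same probes. The other probes of Srebf2 and Mvk had ratios of 0.02 ± 0.06 and 0.07 ± 0.05.

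**Figure D2:**
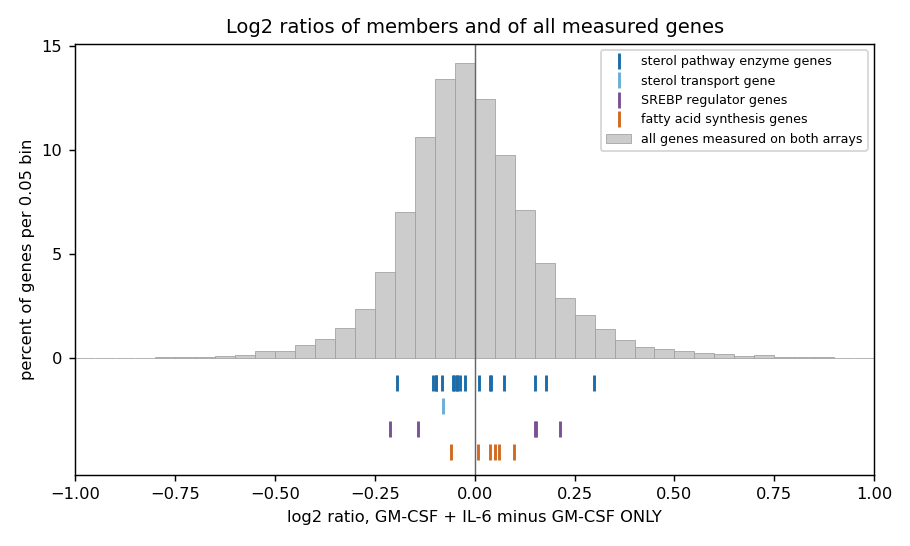
Distribution of log2 ratios (GM-CSF + IL-6 minus GM-CSF ONLY) of all 13843 measured genes, as percent per bin of 0.05, with each member as a tick below, by role. The ticks run from -0.21 (Scap) to 0.30 (Acat2), and 18.7% and 9.40% of all measured genes lay as far from 0.

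The enzymes of the sterol pathway had ratios on both sides of 0, with 7 of 18 above and 11 below and a median of -0.04. A ratio below 0 was found in 56.2% of all measured genes. The 7 enzymes that lead to farnesyl diphosphate had a median of -0.04 and a range from -0.19 to 0.30. The 11 that act from squalene on had a median of -0.04 and a range from -0.10 to 0.18, so the later steps of the pathway were not set apart from the earlier ones.

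Acat2, the cytosolic thiolase that joins acetyl-CoA units at the start of the pathway, had a signal of 497.1 with GM-CSF + IL-6 and 404.2 with GM-CSF ONLY. This was 1.23-fold higher (log2 ratio 0.30 ± 0.09), and 9.40% of all measured genes lay as far from 0. Hmgcs1, which forms HMG-CoA and is a classical target of SREBP, had 10728 with GM-CSF + IL-6 and 11359 with GM-CSF ONLY (-0.08 ± 0.04). Mvk, which phosphorylates mevalonate, had 6044 with GM-CSF + IL-6 and 6914 with GM-CSF ONLY (-0.19 ± 0.05), the lowest ratio among the enzymes. Its other probe gave 1794 and 1705 in the same order of cultures, a ratio of 0.07 ± 0.05, so the probes of Mvk fell on opposite sides of 0. Pmvk, the next kinase, had 13031 with GM-CSF + IL-6 and 13427 with GM-CSF ONLY (-0.04 ± 0.04, but 0.04 with normexp background correction), while its other probe gave 0.08 ± 0.05. Mvd, which removes a carboxyl group from diphosphomevalonate, had 3561 with GM-CSF + IL-6 and 3537 with GM-CSF ONLY (0.01 ± 0.05).

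Idi1, the isomerase of the isoprene unit, had 5601 with GM-CSF + IL-6 and 6022 with GM-CSF ONLY (log2 ratio -0.10 ± 0.05). Fdps, which makes farnesyl diphosphate, the branch point to sterols and to prenylated proteins, had 56831 with GM-CSF + IL-6 and 51184 with GM-CSF ONLY (0.15 ± 0.04). Of the 7 early enzymes, Acat2, Fdps and Mvd thus had ratios above 0, that of Mvd within its error. With normexp the ratio was 0.10 for Fdps, 0.07 for Mvd, which is beyond its error, and -0.13 for Hmgcs1.

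Fdft1, squalene synthase, commits farnesyl diphosphate to sterols. Its brighter probe had 2348 with GM-CSF + IL-6 and 2388 with GM-CSF ONLY (log2 ratio -0.02 ± 0.05). Its other probe had 12 with GM-CSF + IL-6, not well above background, and 108.7 with GM-CSF ONLY, which is at least 7.01-fold lower when the dim value is raised to 15.5, the lowest signal well above background on that array. That spot lay in row 4 and column 161 of the 384 rows and 164 columns, in 1 of 10 crowded areas, meaning areas where several probes without a gene symbol differed 2-fold together. The crowded areas held 2.82% of measured gene probes. The 41 other probes of the members lay outside these areas, and without the areas the value of Fdft1 is that of its brighter probe.

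Sqle, squalene epoxidase, had 7567 with GM-CSF + IL-6 and 7762 with GM-CSF ONLY (log2 ratio -0.04 ± 0.05). Lss, which closes the sterol rings to form lanosterol, had 503.9 with GM-CSF + IL-6 and 519.5 with GM-CSF ONLY (-0.04 ± 0.08). Cyp51, the lanosterol demethylase, had 609.9 with GM-CSF + IL-6 and 633.7 with GM-CSF ONLY (-0.06 ± 0.07). These successive steps around lanosterol were all within their technical error of 0. With normexp, however, Lss had -0.09 and Cyp51 -0.10, both beyond their error. Tm7sf2, a sterol reductase, had 3056 with GM-CSF + IL-6 and 2972 with GM-CSF ONLY (0.04 ± 0.05), and its other probe gave 0.11 ± 0.08.

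The enzymes that trim methyl groups from the ring were also close to 0. Msmo1, the sterol methyl oxidase, had 11878 with GM-CSF + IL-6 and 12306 with GM-CSF ONLY (log2 ratio -0.05 ± 0.04). Nsdhl, its partner dehydrogenase, had 1280 with GM-CSF + IL-6 and 1216 with GM-CSF ONLY (0.07 ± 0.06), and 0.02 ± 0.12 on its other probe. Hsd17b7, the ketosterol reductase of the same complex, had 650.6 with GM-CSF + IL-6 and 633.6 with GM-CSF ONLY (0.04 ± 0.07), and -0.07 ± 0.08 on its other probe.

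The last 3 enzymes did not lie on the same side of 0. Ebp, the sterol isomerase, had 15189 with GM-CSF + IL-6 and 16255 with GM-CSF ONLY (log2 ratio -0.10 ± 0.04). Sc5d, the sterol desaturase, had 2403 with GM-CSF + IL-6 and 2571 with GM-CSF ONLY (-0.10 ± 0.05). Dhcr7, which reduces the immediate precursor of cholesterol, had 1022 with GM-CSF + IL-6 and 902.3 with GM-CSF ONLY (0.18 ± 0.06). Stard4, a carrier of sterol between membranes, had 1573 with GM-CSF + IL-6 and 1661 with GM-CSF ONLY (-0.08 ± 0.05), while its other probe gave 420.4 and 373.0 in the same order (0.17 ± 0.09).

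**Figure D3:**
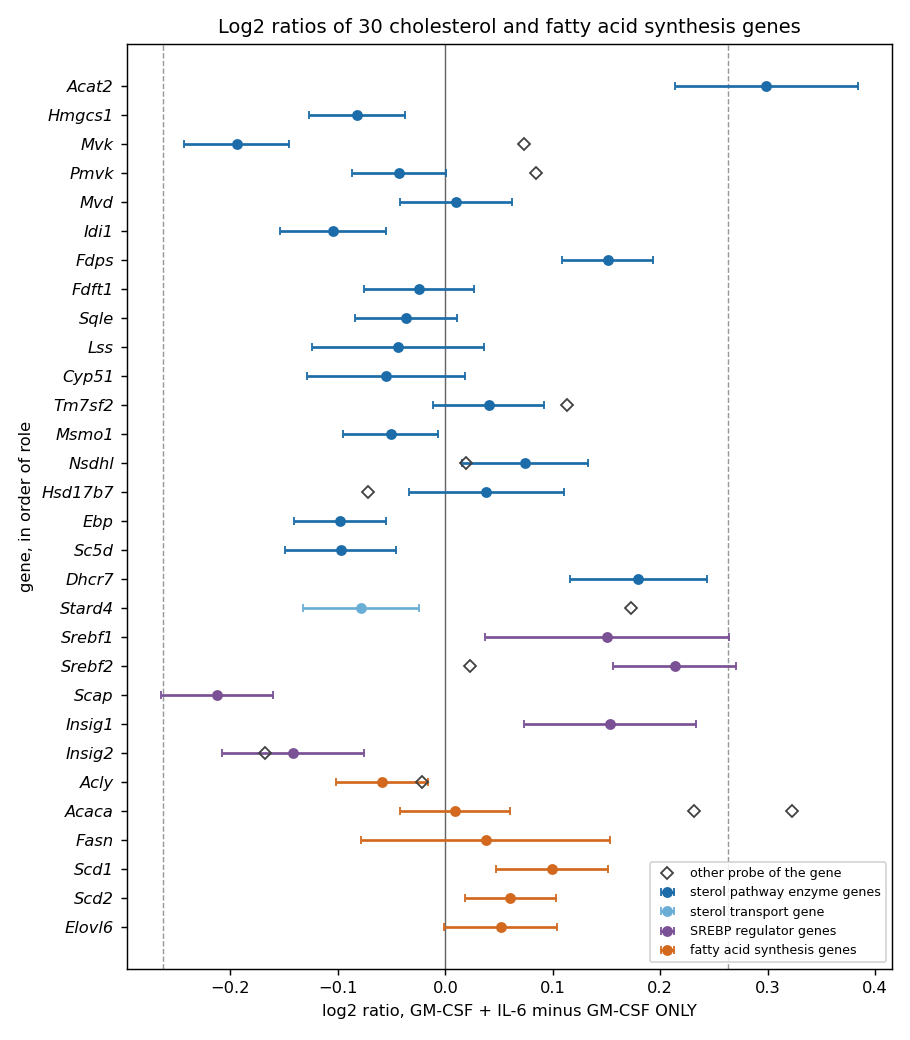
Log2 ratio (GM-CSF + IL-6 minus GM-CSF ONLY) of each member, in order of role, with filled points for the brightest probe and bars for the technical error of a spot. Open diamonds are other probes of the gene that were well above background on both arrays, and dashed lines mark 1.2-fold, which Acat2 alone passes among the filled points.

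The 5 regulators had ratios that ran in both directions, with 3 above and 2 below 0, a median of 0.15 and a range from -0.21 to 0.21. Srebf2 had 1466 with GM-CSF + IL-6 and 1265 with GM-CSF ONLY, 1.16-fold higher (log2 ratio 0.21 ± 0.06). Its other probe had 1343 with GM-CSF + IL-6 and 1321 with GM-CSF ONLY (0.02 ± 0.06), so the probes of Srebf2 differed by 0.19. Srebf1 had 233.8 with GM-CSF + IL-6 and 210.7 with GM-CSF ONLY (0.15 ± 0.11). Scap, the escort protein gene, had 3670 with GM-CSF + IL-6 and 4251 with GM-CSF ONLY, 1.16-fold lower (-0.21 ± 0.05), the lowest ratio of the 30 genes.

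The paralogous INSIG genes, which encode the retention proteins of the endoplasmic reticulum, lay on opposite sides of 0. Insig1, itself a target of SREBP, had 546.8 with GM-CSF + IL-6 and 491.7 with GM-CSF ONLY (log2 ratio 0.15 ± 0.08). Insig2 had 815.0 with GM-CSF + IL-6 and 899.4 with GM-CSF ONLY (-0.14 ± 0.07), and its other probe, for another RefSeq transcript, gave -0.17 ± 0.14. The probes of Insig2 thus differed by 0.03, less than those of Srebf2.

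Genes of fatty acid synthesis had ratios closer to 0 than the regulators. Of 6 genes, 5 were above and 1 was below 0, where 56.2% of all measured genes were below. The median was 0.04 and the range from -0.06 to 0.10. Acly, which makes cytosolic acetyl-CoA from citrate and so feeds both branches, had 23507 with GM-CSF + IL-6 and 24491 with GM-CSF ONLY (log2 ratio -0.06 ± 0.04), and -0.02 ± 0.11 on its other probe. Fasn, the fatty acid synthase, had 218.7 with GM-CSF + IL-6 and 213.1 with GM-CSF ONLY (0.04 ± 0.12). Elovl6, which lengthens palmitate, had 1773 with GM-CSF + IL-6 and 1710 with GM-CSF ONLY (0.05 ± 0.05, but -0.01 with normexp).

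Acaca, the carboxylase that makes malonyl-CoA, had the widest spread between probes well above background on both arrays. The brightest had 4605 with GM-CSF + IL-6 and 4576 with GM-CSF ONLY (log2 ratio 0.01 ± 0.05). A dimmer probe had 131.5 with GM-CSF + IL-6 and 112.0 with GM-CSF ONLY (0.23 ± 0.17), and the dimmest had 50.7 and 40.6 in the same order (0.32 ± 0.25). The stearoyl-CoA desaturases, which put a double bond into saturated fatty acids, were both slightly above 0. Scd1 had 1836 with GM-CSF + IL-6 and 1714 with GM-CSF ONLY (0.10 ± 0.05), and Scd2 had 38497 with GM-CSF + IL-6 and 36916 with GM-CSF ONLY (0.06 ± 0.04). Apart from Acaca and Fdft1, no member had probes more than 0.3 apart.

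**Figure D4:**
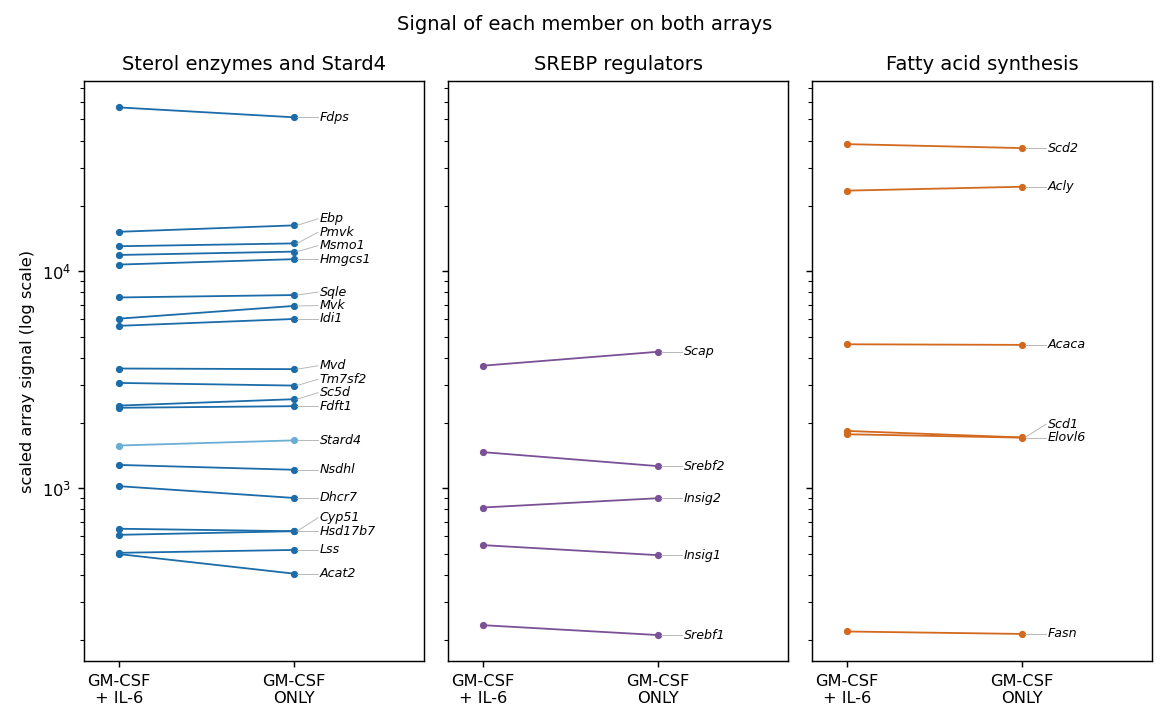
Scaled signal of each member on the GM-CSF + IL-6 array (left) and the GM-CSF ONLY array (right), on a log scale, with a line joining the values of a gene. The lines are nearly level in all 3 panels, and heights of different genes reflect their probes as well as their RNA.

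The median of the sterol enzymes minus that of the fatty acid genes was -0.08 on the log2 scale. With 1 array per condition this gap could not be tested. The technical error of a member ran from 0.04 to 0.12, and the probes of 10 members with several measured ones differed between the brightest and the next by a median of 0.12 and at most 0.27. Over 3506 genes with several measured probes the median gap was 0.11, and over the 1385 whose probes were both above the 75th percentile it was 0.07.

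Genes around the pathway were described from lists chosen with the members. Among 16 genes that process or degrade SREBP and its partners or encode NF-Y and Sp1, 4 were above and 12 below 0, with a median of -0.06. Of all measured genes 56.2% were below 0. Ufd1, a cofactor in protein degradation at the endoplasmic reticulum, had 6368 with GM-CSF + IL-6 and 7423 with GM-CSF ONLY (log2 ratio -0.22 ± 0.05), and -0.04 ± 0.19 on a dim probe. The ubiquitin ligase gene Rnf139 had -0.16 ± 0.06, and Mbtps1, which encodes the protease that makes the initial cut in SREBP, had -0.14 ± 0.05, with 0.07 ± 0.17 on a dim probe. The NF-Y subunit genes Nfyb and Nfya had 0.22 ± 0.06 and 0.18 ± 0.06, and the other probes of Nfyb gave 0.01 and -0.01. Erlin2, whose product binds cholesterol in the endoplasmic reticulum, had 0.06 ± 0.08. The 1 gene of this list at least 1.2-fold apart was the dim Mbtps2, which encodes the protease of the second cut (0.30 ± 0.17), and its other probe gave -0.27 ± 0.25. Over all measured genes 6.36% were at least 1.2-fold higher and 5.97% as much lower.

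Other sterol and isoprenoid genes lay evenly about 0, with 7 of 15 above and 8 below, where 56.2% of all measured genes were below, and a median of -0.01. Npc2, which hands cholesterol on from lysosomes, had 18637 with GM-CSF + IL-6 and 21168 with GM-CSF ONLY (log2 ratio -0.18 ± 0.04). Soat1, which esterifies cholesterol for storage, had 0.15 ± 0.07 on a probe in a crowded area of the array, and Tmem97 and the mitochondrial thiolase gene Acat1 had 0.08 ± 0.05 and 0.06 ± 0.06.

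Other genes of fatty acid and glycerolipid synthesis included the highest ratios among the lists of lipid genes. Of 29 genes 26 were measured, 10 above and 16 below 0, where 56.2% of all measured genes were below, with a median of -0.04. Thrsp, Gpam and Pnpla3 were below background on both arrays. Fads2, the desaturase at the entry to polyunsaturated fatty acids, had 193.5 with GM-CSF + IL-6 and 132.3 with GM-CSF ONLY, 1.46-fold higher (log2 ratio 0.55 ± 0.14), on its 1 probe. Hsd17b12, the ketoacyl reductase of fatty acid elongation, had 1064 with GM-CSF + IL-6 and 863.0 with GM-CSF ONLY, 1.23-fold higher (0.30 ± 0.06). Slc25a1, which exports citrate from mitochondria to Acly, had 0.11 ± 0.05. Elovl1, an elongase of long chains, had -0.15 ± 0.04, and its other probe gave a value within its error of 0. Agpat3, an acyltransferase gene, had -0.14 ± 0.08 and Hacd3, a dehydratase gene of fatty acid elongation, had -0.11 ± 0.05. The dim genes Me1 and Acacb had 0.60 ± 0.25 and -0.51 ± 0.25, and another probe of Me1 well above background gave 0.16 ± 0.25. Of the 26 measured genes, 3 (Fads2, Hsd17b12 and Me1) were at least 1.2-fold higher and 1 (Acacb) was as much lower. Among all measured genes 6.36% and 5.97% were.

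Genes of sterol efflux and of the sterol sensor LXR had 3 of 13 ratios above and 10 below 0, where 56.2% of all measured genes were below, and a median of -0.07, which was -0.01 with normexp. Apoe, the apolipoprotein that carries cholesterol out of macrophages, was 1.32-fold lower, with 3491 with GM-CSF + IL-6 and 4606 with GM-CSF ONLY (log2 ratio -0.40 ± 0.02, a mean of 10 spots). Mylip, an LXR target that encodes a ubiquitin ligase, had -0.18 ± 0.06, and the transporter gene Abcg1 had -0.15 ± 0.05. On the other side of 0, the LXR target Arl4c had 0.18 ± 0.05 and Nr1h2, which encodes an LXR, had 0.09 ± 0.04. The dim gene Ch25h, which makes an oxysterol that blocks SREBP, had 27.5 with GM-CSF + IL-6 and 41.0 with GM-CSF ONLY (-0.58 ± 0.25). Apoe and Ch25h were the 2 genes of this list at least 1.2-fold lower, and 0 were as much higher, where 5.97% and 6.36% of all measured genes were.

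Fatty acid oxidation genes, the opposing pathway, had a median of -0.03, with 5 of 16 above and 11 below 0 and 0 genes 1.2-fold apart. Over all measured genes 56.2% were below 0, 6.36% were at least 1.2-fold higher and 5.97% as much lower. Etfb, an electron carrier subunit, had the highest ratio (0.24 ± 0.04), followed by Acads (0.13 ± 0.09) and Ppara (0.10 ± 0.04). Acadvl, which starts the breakdown of long chains, had the lowest (-0.19 ± 0.05), and Cpt2 had -0.10 ± 0.05.

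The RNA came from mixed cultures, so a difference in the share of a cell type and a difference in RNA per cell cannot be told apart. All 11 myeloid markers were measured, the brightest being S100a9, S100a8 and Mpo, with log2 ratios from -0.12 to 0.14. Of 9 macrophage markers 8 were measured, the brightest being Csf1r, Adgre1 and C1qc, with summed signals of 73738 with GM-CSF + IL-6 and 85329 with GM-CSF ONLY and a median ratio of -0.07. Most of that gap is Csf1r, with 57302 and 68232 in the same order (-0.25 ± 0.04), whose other probes gave -0.20 and 0.26. In all 3 of the 8 were above 0, and Mrc1, the 1 marker at least 1.2-fold apart, had 0.27 ± 0.08. Adipocytes, which make fatty acids strongly, were represented by 10 markers, of which Adipoq, Plin1, Lep and Pck1 were below background on both arrays. The other 6 had summed signals of 3040 with GM-CSF + IL-6 and 2792 with GM-CSF ONLY, and the brightest were Pparg, Retn and Lipe, of which Pparg is also known in myeloid cells. Pparg had 2439 and 2120 in the same order, whereas 4 of the 6 were below 0, with a median of -0.06, and Retn had 303.5 and 372.2 (-0.29 ± 0.10). All 7 mast cell and basophil markers were above 0, where 56.2% of all measured genes were below, with a median of 0.20. The brightest were Mcpt8, Cpa3 and Gata2, and the 7 had summed signals of 46409 with GM-CSF + IL-6 and 41000 with GM-CSF ONLY. At least 1.2-fold higher were 2 of the 7, against 6.36% of measured genes. These were Ms4a2 (0.28 ± 0.11) and Tpsb2 (0.42 ± 0.05, but -0.11 ± 0.25 on a dim probe). The 10 markers of dividing cells had a median of 0.04 and summed signals of 106251 and 104296 in the same order, with Mki67, Pcna and Rrm2 the brightest. Of 9 stromal markers 5 were measured, with Lepr, Col1a1 and Col1a2 the brightest on average. Of these 5 markers, 3 were above and 2 below 0, with a median of 0.24. Lepr had a log2 ratio of 0.24 ± 0.04 and the dim Col1a2 0.53 ± 0.22. The dim Col1a1 had 68.5 with GM-CSF + IL-6 and 75.1 with GM-CSF ONLY. The dim Sparc, named for being 2-fold apart, had 100.4 with GM-CSF + IL-6 and 36.0 with GM-CSF ONLY. The other probe of Sparc was not well above background on either array. Col3a1, Cxcl12, Dcn and Lum were below background on both arrays. Of 7 erythroid markers 4 were measured (Tfrc, Hbb-bt and Epor the brightest on average), with a median of 0.13, 3 of them above 0 and Epor at -0.01. The 1 erythroid marker at least 1.2-fold apart, the dim Hba-a1, had 163.9 with GM-CSF + IL-6 and 101.8 with GM-CSF ONLY (0.69 ± 0.16). The 6 B cell markers (Cd79b and Ms4a1 among the brightest) had a median of -0.05, and 5 measured T and NK cell markers (Nkg7, Cd4 and Cd3e the brightest) had 0.08. The part of these markers in the ratios of the pathway genes was not tested.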

How the data were processed

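The authors deposited Agilent Feature Extraction 10.7.1.1 files with 1 intensity per spot, detrended within the array and not scaled between arrays, per the file headers. The series matrix deposited by the authors holds log2 values of 55821 probes with equal medians of 5.10, whose sorted columns differ by at most 0.00136. No source used here names the method behind it. From the processed intensities, log2 values minus the 75th percentile of each array (486.2 with GM-CSF + IL-6, 549.7 with GM-CSF ONLY) were computed. Spots that the scanner software marked as outliers were dropped, and repeated spots averaged per probe. A probe was measured where at least 50% of its spots were well above background. The spot error came from 266 probes with at least 5 spots. Symbols came from a RefSeq table of GRCm38.p6, and promoter letters from RefSeq.

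The members and lists were chosen with earlier results of these data known. Named were every member, up to 3 genes per direction of each list with the largest ratios outside the dimmest 25%, and up to 3 of the brightest of each marker list. Mbtps2, Me1, Acacb, Ch25h, Sparc, Mrc1, Tpsb2, Ms4a2, Hba-a1 and markers below background were named after their values were seen. Some genes that the rule covers are not reported here. The split of the sterol enzymes at farnesyl diphosphate, the motif shares and the head-to-head neighbours were also chosen after values were seen, and so was the definition of crowded areas, after other definitions had been tried. The planned comparison of protein sequences was not made. The ratio step was tested on simulated data. Precision is limited by having 1 array per condition. The 10 alternatives were other scalings, normexp with an offset of 50, the authors' matrix, other filters and probe rules, and leaving out crowded areas (tiles of 16 by 12 spots with at least 4 probes 2-fold apart) with the outermost spots. Tools were Python 3.11.15, numpy 2.4.6, pandas 2.3.3, matplotlib 3.10.9, R 4.3.3 and limma 3.58.1.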

Additional observations from a re-analysis of the deposited data

How the results depend on the processing

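Under the 10 alternatives the median log2 ratio kept its sign for the sterol enzymes (-0.05 to -0.03), the fatty acid genes (0.03 to 0.06), the regulators (0.12 to 0.16) and the gap between both branches (-0.09 to -0.07). The count of members at least 1.2-fold higher was 1 and of those lower 0 in each. Other filters on dim probes and keeping outlier spots did not touch the probes used, so these values could not change there. Median centring shifts all ratios alike, so the gap could not change there either. The counts beyond 2 technical errors, recomputed after seeing the data, ran from 4 to 6 on the higher side and from 2 to 7 on the lower side, against 4 and 5, with 2 on the lower side under quantile normalization and in the authors' matrix and 3 under cyclic loess. Of 298 recomputed log2 ratios of members, 138 were identical to the reported value, since other filters, outlier spots and crowded areas did not touch the probes used and most genes had a single probe, so these say nothing of stability. Of the other 160, 12 moved by more than the technical error, 7 of these under normexp and 5 where the median of all probes of a gene was taken. Median centring could move none of its 30, because it shifts every ratio by the same amount, below any technical error. Normexp thus moved 7 of 30 ratios, and the median over probes left 20 of 30 identical and moved 5. Among the 12, normexp gave 0.04 for Pmvk and -0.01 for Elovl6, both of changed sign. Taking the median over probes instead gave 0.02 for Pmvk and 0.05 for Stard4, also of changed sign, and -0.06 for Mvk, 0.12 for Srebf2 and 0.23 for Acaca. It also turned Hsd17b7 to -0.02, within its error. The cause was not tested. The median of the efflux list was -0.01 with normexp, and that of other sterol genes, near 0, changed sign in 3 settings. Without crowded areas and outermost spots, Sqle and Msmo1 had no value, because their probes lie in the outermost row. No paired analysis was possible because there was 1 array for each of the conditions.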

Other observations

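Some members share a promoter region with a gene on the opposite strand, and the question whether such neighbours had like ratios was raised after seeing the data. Within 1000 bases, 5 of the 24 members with a promoter sequence had such a head-to-head neighbour in the RefSeq table, and for 3 of these the neighbour was measured. Mvk and Mmab, a gene of vitamin B12 metabolism, start 242 bases apart. Mmab had 397.3 with GM-CSF + IL-6 and 391.7 with GM-CSF ONLY (log2 ratio 0.02 ± 0.09), beside -0.19 and 0.07 on the probes of Mvk. Dhcr7 and Nadsyn1, which makes NAD, start 315 bases apart and had ratios of 0.18 ± 0.06 and -0.13 ± 0.06. Dhcr7 has several starts, and this distance cannot hold for all of them. Nsdhl and Cetn2, a centrin gene of the centrosome, start 177 bases apart and had 0.07 ± 0.06 and -0.06 ± 0.05. In the last 2 pairs the neighbours lay on opposite sides of 0.

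Members with and without a CCAAT box in the promoter window had median log2 ratios of -0.04 (20 genes) and 0.03 (4 genes). For the GC box the medians were -0.05 (20 genes) and 0.02 (4 genes), and for an SRE with at most 1 mismatch 0.04 (11 genes) and -0.04 (13 genes). None of these gaps was tested.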
